A study of Homo sapiens with 6 samples.

Results

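The 10 genes described here encode 7 matrix metalloproteinases (MMP1, MMP2, MMP3, MMP7, MMP9, MMP10 and MMP14) and 3 tissue inhibitors of metalloproteinases (TIMP1, TIMP2 and TIMP3). They were chosen by name, as the main secreted and membrane-bound proteases of the extracellular matrix and the inhibitors that bind them, and they are 10 of the 20461 genes in the deposited expression table. All 10 were found in the table by symbol.

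Gene expression was profiled by RNA-seq in PANC1, an established human pancreatic ductal carcinoma cell line, upon treatment with gemcitabine, a nucleoside analog used as chemotherapy for pancreatic cancer. In 2 libraries cells had received vehicle (0.1% DMSO), and in 2 libraries 50 nM gemcitabine, each for 48 h. The study's methods call the libraries of a condition biological replicates, and all came from 1 cell line, so no second genetic background was measured. Accessible chromatin was mapped by DNaseI-seq in 1 vehicle and 1 gemcitabine sample (50 nM), and those data therefore have no replicate check.

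Matrix metalloproteinases are zinc-dependent endopeptidases that are mostly secreted as inactive precursors and that together cleave most proteins of the extracellular matrix. TIMPs occupy the catalytic site of the active enzymes, and TIMP2 also takes part in activating the MMP2 precursor at the cell surface together with MMP14. In pancreatic carcinoma the proteases and their inhibitors are made by both the tumour cells and the surrounding stroma. RNA levels say nothing about activation of the precursors or about secretion.

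Upstream sequences are shown so that the starts of 3 genes at or near 0 (MMP7, MMP10 and MMP14) can be set beside those of 2 expressed genes (TIMP1 and TIMP3). Of the 10 genes, 5 had an entry in the RefSeq promoter table (GRCh38.p14). MMP1, MMP2, MMP3, MMP9 and TIMP2 had none. The 250 bases before the transcription start are printed on the strand of the gene, and capitals mark matches on either strand to the AP-1 motif TGANTCA, the TATA box TATAAA and the GC box GGGCGG. No match of one motif overlapped a match of another.
MMP7 (chr11:102530748-102530997, minus strand): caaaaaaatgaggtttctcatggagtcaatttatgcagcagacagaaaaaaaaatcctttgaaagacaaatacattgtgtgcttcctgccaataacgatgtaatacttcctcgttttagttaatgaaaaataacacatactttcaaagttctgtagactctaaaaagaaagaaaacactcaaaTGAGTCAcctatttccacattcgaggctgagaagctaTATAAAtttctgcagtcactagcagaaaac
MMP10 (chr11:102780629-102780878, minus strand): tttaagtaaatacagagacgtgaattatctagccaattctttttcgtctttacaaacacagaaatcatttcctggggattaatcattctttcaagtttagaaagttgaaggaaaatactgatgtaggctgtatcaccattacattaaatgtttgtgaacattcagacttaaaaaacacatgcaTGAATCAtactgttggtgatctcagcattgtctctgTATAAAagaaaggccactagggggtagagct
MMP14 (chr14:22836335-22836584, plus strand): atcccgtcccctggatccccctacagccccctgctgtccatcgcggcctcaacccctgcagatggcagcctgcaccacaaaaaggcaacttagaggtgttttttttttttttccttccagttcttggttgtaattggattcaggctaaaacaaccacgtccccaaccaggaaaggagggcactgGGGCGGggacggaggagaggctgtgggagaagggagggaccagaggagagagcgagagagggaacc
TIMP1 (chrX:47582186-47582435, plus strand): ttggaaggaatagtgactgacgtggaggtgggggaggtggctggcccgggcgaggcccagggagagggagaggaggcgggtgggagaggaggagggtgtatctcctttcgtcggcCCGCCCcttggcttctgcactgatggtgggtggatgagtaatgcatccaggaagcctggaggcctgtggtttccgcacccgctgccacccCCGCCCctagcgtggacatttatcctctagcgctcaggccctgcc
TIMP3 (chr22:32801455-32801704, plus strand): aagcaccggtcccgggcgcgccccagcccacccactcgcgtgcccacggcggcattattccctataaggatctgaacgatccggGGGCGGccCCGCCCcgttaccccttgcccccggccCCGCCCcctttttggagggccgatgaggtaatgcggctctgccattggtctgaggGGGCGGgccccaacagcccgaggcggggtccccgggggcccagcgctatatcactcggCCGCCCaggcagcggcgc

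In the upstream sequences of MMP7 and MMP10, the AP-1 match began at position -67 in both genes, counted back from the transcription start. The TATA box followed at -30 in MMP7 and at -31 in MMP10. The sequences of MMP14, TIMP1 and TIMP3 held neither of those motifs, and instead 1, 2 and 5 GC boxes. GC content followed the same division, at 33.6% for MMP7 and 34.4% for MMP10 against 56.8% for MMP14, 64.8% for TIMP1 and 72.4% for TIMP3, with a median of 58.0% over the 35116 sequences of the table. Of all those sequences, 6.57% held the AP-1 motif, 10.7% the TATA box and 42.6% the GC box. These matches describe letters in a reference sequence and show no binding.

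Depth, counted as fragments assigned to the genes of the expression table, was 13194535 to 15766232 per library. An absence of fragments is compatible with up to 3 fragments, or 0.190 to 0.227 CPM (a count per library size) depending on the library. These limits use the library total alone and cover counting error only. The CPM given below for single genes were also scaled by TMM, the scaling used in the tests. The epithelial keratins KRT7, KRT8 and KRT18 were above 300 FPKM (fragments scaled to transcript length and to the library's mapped fragments) in every library, whereas KRT19, EPCAM and CDH1, further epithelial markers, were below 7 FPKM. PRSS1, INS and GCG, defining genes of acinar and islet cells, were listed at 0 throughout. CPA1 and CELA3A, further acinar markers, had at most 1 fragment in a library. Of the mesenchymal markers, VIM was at 417 and 452 FPKM and CDH2 at 35.3 and 30.4 FPKM by mean in vehicle and gemcitabine libraries. Of the endothelial markers, VWF had 8 and 9 fragments in vehicle and 34 and 30 in gemcitabine libraries. CDH5 had at most 3 in a library, and PECAM1 did not match. Summed FPKM of the 7 fibroblast markers was 1435 to 1534 in vehicle and 1724 to 1949 in gemcitabine libraries. By FPKM, 5 of the 7 were higher in both gemcitabine libraries than in both vehicle libraries. In scaled counts, another scale, 35.0% of all tested genes were, so this share cannot be compared with the 5 of 7. LUM, PDGFRB and ACTA2 were higher in unscaled fragments too. COL1A1 and DCN were not, with 62075 and 62658 fragments against 56723 and 61229 for COL1A1, and 32 and 39 against 24 and 32 for DCN. COL1A1 and COL3A1 made up most of the sum, whereas COL1A2, whose product joins that of COL1A1 in type I collagen, had 0 and 3 fragments in vehicle and 3 and 0 in gemcitabine libraries, at or under the limit of 3. The 2 leukocyte markers summed to 10.7 to 10.9 FPKM in vehicle and 20.5 to 24.7 FPKM in gemcitabine libraries, nearly all of it CD68, which many cell types express. The part of these markers in the results was not tested.

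Of the 7 proteases, 1 was measured above the limit of detection. MMP2, the gelatinase that cleaves denatured collagen and basement membrane collagen, was measured at 113.9 and 111.4 FPKM in the vehicle libraries and at 140.4 and 158.6 FPKM in the gemcitabine libraries. The other 6 had at most 3 fragments in any library and at most 0.161 FPKM. MMP2 lies at chr16:55423612-55540603 on the plus strand (hg19), and its exons share 174 bases with an unnamed transcript on the same strand that was not counted.

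Among the proteases at or near 0, MMP1, the interstitial collagenase that cleaves fibrillar collagen, had 2 fragments in the first vehicle library and 0 in the other 3. MMP3 and MMP10, the stromelysins, and MMP9, the second gelatinase, had 0 fragments in all 4 libraries. MMP7, the matrilysin made by glandular epithelium, had 0 and 2 fragments in vehicle and 3 and 2 in gemcitabine libraries. MMP14, the membrane-anchored protease that activates the MMP2 precursor, had 0 and 1 fragments in vehicle and 3 and 3 in gemcitabine libraries. All these values were at or under the limit of 3 fragments, so no fold change is given for them, and a change in these genes was not detectable at this depth. In bulk RNA, fewer cells making a transcript and less transcript per cell cannot be told apart. MMP1, MMP3, MMP7 and MMP10 lie together on chromosome 11 between 102391239 and 102714340 (hg19, all on the minus strand), MMP14 lies at chr14:23305769-23318250 and MMP9 at chr20:44637547-44645200.

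The 3 inhibitors were all expressed. TIMP1, which inhibits most secreted metalloproteinases, was the highest of the family at 480 and 427 FPKM in vehicle and 605 and 628 FPKM in gemcitabine libraries. TIMP2, which inhibits MMP2 and assists its activation, was at 193 and 177 FPKM in vehicle and 181 and 211 FPKM in gemcitabine libraries. TIMP3, the inhibitor that stays bound to the extracellular matrix and also acts on ADAM proteases, was at 10.4 and 9.70 FPKM in vehicle and 12.97 and 12.73 FPKM in gemcitabine libraries.

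On the FPKM scale, which corrects for transcript length, the order was TIMP1, TIMP2, MMP2 and TIMP3 in both conditions, and the ranges of neighbours did not overlap. TIMP1 was 2.46 times TIMP2 by mean in vehicle and 3.15 times in gemcitabine libraries. TIMP2 was 1.64 times MMP2 in vehicle and 1.31 times in gemcitabine libraries, where the lowest TIMP2 value was 180.6 FPKM and the highest MMP2 value 158.6 FPKM. MMP2 was 11.2 and 11.6 times TIMP3. The 6 remaining proteases are not ordered among themselves, since all their values were at or under the limit of 3 fragments.

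**Figure D1:**
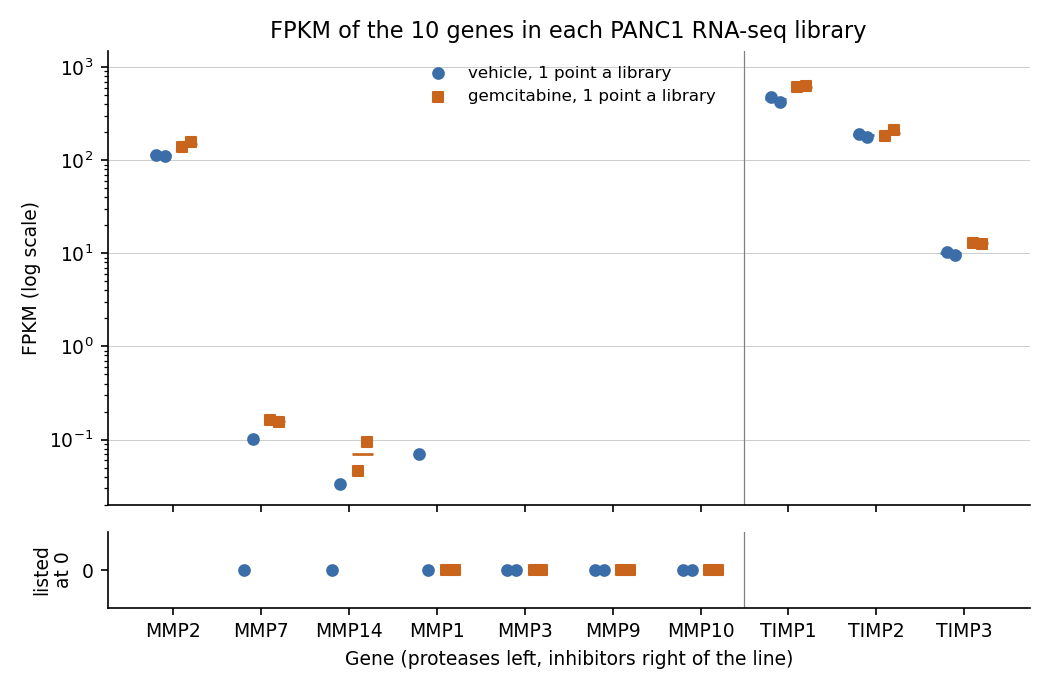
FPKM of each gene in each PANC1 library on a log scale, with values listed at 0 on a strip of their own below. Circles are the 2 vehicle and squares the 2 gemcitabine libraries, and short lines are means where no library was at 0. MMP2 and the 3 TIMPs lie between 9.70 and 628 FPKM, and the other 6 proteases at or below 0.161 FPKM.

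Upon gemcitabine treatment no gene of the family met all criteria of differential expression. Those criteria were an adjusted p below 0.05, a fold change above 1.5, a mean of at least 0.1 FPKM in 1 condition, and a difference of at least 1 FPKM between the means. Of the 10 genes, 4 had the 10 fragments over all libraries required for testing: MMP2, TIMP1, TIMP2 and TIMP3. Over all 14854 genes tested, 5.69% were called higher and 4.42% lower. These calls used the quasi-likelihood test of edgeR, with p-values adjusted by Benjamini-Hochberg over these genes.

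Without the fold criterion, 3 of the 4 tested genes were higher at an adjusted p below 0.05 and none was lower, beside 18.5% of all tested genes higher and 20.0% lower. The median log2 fold change was 0.29 over the 4 genes and 0.01 over all tested genes. For the same 3 genes both gemcitabine libraries exceeded both vehicle libraries in scaled counts, as they did for 35.0% of all tested genes. With 4 genes, none of these counts sets the family apart from the rest of the table.

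Fragments of MMP2 numbered 2234 and 2180 in vehicle and 2486 and 2826 in gemcitabine libraries, or 154 and 143 against 179 and 207 CPM. Both gemcitabine libraries lay above both vehicle libraries, and the gemcitabine libraries differed from each other more than the vehicle libraries did. The log2 fold change was 0.38 (SE 0.078, 95% confidence interval 0.21 to 0.55, edgeR adjusted p = 0.00142). The interval lay wholly below the log2 value of the 1.5-fold limit. The log2 fold change was 0.27 to 0.49 when 1 library was left out. With limma on log2(FPKM + 1) the adjusted p was 0.0868.

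TIMP1 had 3101 and 2875 fragments in vehicle and 3407 and 3558 in gemcitabine libraries, or 213 and 189 against 245 and 261 CPM. The groups did not overlap, and the vehicle libraries lay further apart than the gemcitabine libraries did. The log2 fold change was 0.33 (SE 0.074, 95% confidence interval 0.18 to 0.49, edgeR adjusted p = 0.0025). The log2 fold change was 0.26 to 0.43 when 1 library was left out. With limma on log2(FPKM + 1) the adjusted p was 0.0725. TIMP1 lies at chrX:47441807-47446188 on the plus strand, inside a gene on the opposite strand, SYN1, with which it shares no exonic base.

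TIMP3 had 735 and 746 fragments in vehicle and 826 and 795 in gemcitabine libraries, or 50.6 and 49.0 against 59.5 and 58.4 CPM. The libraries of each condition lay close together and the conditions did not overlap. The log2 fold change was 0.24 (SE 0.074, 95% confidence interval 0.086 to 0.40, edgeR adjusted p = 0.0173). This was the weakest of the 3: the adjusted p was 0.0882 with DESeq2 and 0.107 with limma on log2(FPKM + 1). The log2 fold change was 0.23 to 0.27 when 1 library was left out. TIMP3 lies at chr22:33197691-33259028 on the plus strand, inside SYN3 on the opposite strand, again with no shared exonic base.

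TIMP2 had 10634.4 and 10580.8 fragments in vehicle and 8945.8 and 10319.7 in gemcitabine libraries, or 732 and 695 against 645 and 758 CPM. The gemcitabine libraries fell on either side of the vehicle libraries. The log2 fold change was -0.02 (SE 0.079, 95% confidence interval -0.19 to 0.14, edgeR adjusted p = 0.831), and its sign changed to 0.08 when libraries were scaled by their totals alone and to 0.08 with limma on log2(FPKM + 1). Without gemcitabine replicate 2 the value was -0.14, and without gemcitabine replicate 1 it was 0.09. TIMP2 lies at chr17:76849059-76921469 on the minus strand. Its exons share 224 bases with CEP295NL on the same strand, so some reads could be split between the 2 genes, and 367 bases with a noncoding gene on the opposite strand whose reads cannot be told apart without strand.

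**Figure D2:**
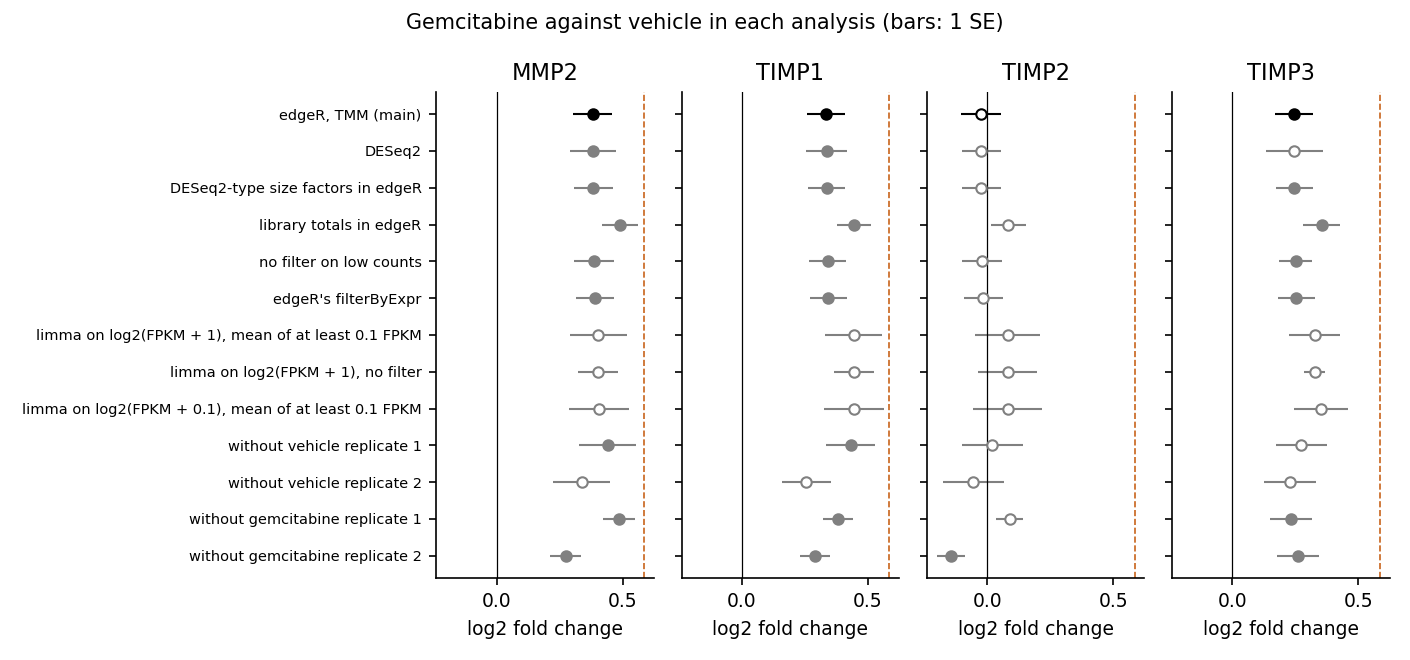
Log2 fold change, gemcitabine over vehicle, of the 4 tested genes in the main analysis (black) and in 12 others (grey), with bars of 1 SE; filled points passed an adjusted p of 0.05 and the dashed line marks a 1.5-fold increase. MMP2, TIMP1 and TIMP3 lie to the right of 0 and left of the dashed line in every analysis, and TIMP2 lies on both sides of 0.

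The balance between proteases and inhibitors was described by the summed FPKM of the 7 MMPs over that of the 3 TIMPs. The ratio was 0.167 and 0.182 in vehicle libraries and 0.176 and 0.186 in gemcitabine libraries. The conditions overlapped, and the gemcitabine mean was 1.04 ± 0.076 times the vehicle mean (SD propagated from the replicates, n = 2 per condition). MMP2 made up over 99.8% of the protease sum in every library, so the ratio is in effect that of MMP2 to the inhibitors. FPKM of MMP2 over FPKM of TIMP2 was 0.591 and 0.630 in vehicle and 0.777 and 0.751 in gemcitabine libraries, which did not overlap. Both ratios are given as a description and were not tested.

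Beyond the 10 genes, 4 lists of related genes were counted. The 16 other matrix metalloproteinases had 14 matches in the table by symbol (MMP12 and MMP28 did not match), and 7 of these were tested. One gene, MMP19, a secreted protease of basement membrane components, was called higher and none lower, beside 5.69% and 4.42% of all tested genes. MMP11, the stromelysin usually made by stroma, was also higher at an adjusted p of 0.0266 by edgeR, and is named after its value was seen. Its log2 fold change was 0.51, below the fold limit, and 0.44 to 0.60 when 1 library was left out. Under all criteria it was called only with library totals. The median log2 fold change over the 7 genes was 0.00, beside 0.01 over all tested genes.

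MMP19 had 67 and 62 fragments in vehicle and 170 and 154 in gemcitabine libraries, with 2.16 and 1.90 against 6.54 and 5.50 FPKM. The conditions were far apart and the libraries within each close together. The log2 fold change was 1.44 (SE 0.17, edgeR adjusted p = 1.34e-05). The study listed MMP19, TIMP4 and PLAT among genes it picked from these same libraries, so their calls are not independent evidence of a direction.

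Among 11 other inhibitors and partners, all tested, 2 were called higher and none lower, and 4 were higher at an adjusted p below 0.05. Over all tested genes the shares were 5.69% called higher, 4.42% called lower and 18.5% higher at that adjusted p. The median log2 fold change was 0.36, beside 0.01 over all tested genes. TIMP4, the fourth inhibitor of the family, had 3.46 and 3.31 FPKM in vehicle and 6.65 and 5.57 FPKM in gemcitabine libraries, a log2 fold change of 0.74 (SE 0.17, edgeR adjusted p = 0.0037). Its adjusted p was 0.0666 with limma on log2(FPKM + 0.1), and its log2 fold change was 0.61 to 0.86 when 1 library was left out. TFPI2, a Kunitz-type inhibitor of plasmin and other proteases, had 66.3 and 66.5 FPKM in vehicle and 144 and 138 FPKM in gemcitabine libraries, a log2 fold change of 0.98 (SE 0.069, edgeR adjusted p = 1.75e-07). TFPI2 was clearly separated between conditions, with almost equal values in the 2 vehicle libraries. CD44, a hyaluronan receptor that can hold metalloproteinases at the cell surface, and THBS1, a matrix glycoprotein, were the others past the adjusted p, both at a log2 fold change of 0.36.

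The list of the plasmin system and activating proteases held plasminogen, its activators and their inhibitors, and also proprotein convertases and membrane serine proteases that can activate other proteases. Of 14 genes 12 were tested, 4 were called higher and none lower, beside 5.69% and 4.42% of all tested genes. At an adjusted p below 0.05, 7 were higher and 1 lower, beside 18.5% and 20.0%. The median log2 fold change over the 12 genes was 0.90, beside 0.01 over all tested genes. The median includes genes with few fragments, such as HPN and ST14, each below 0.13 FPKM by mean in both conditions.

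PLAU, the urokinase-type plasminogen activator, had 5 and 4 fragments in vehicle and 21 and 31 in gemcitabine libraries. Its log2 fold change of 2.61 (SE 0.49, edgeR adjusted p = 0.000731) therefore rested on few fragments, although the conditions did not overlap. PLAT, the tissue-type activator, had 3.66 and 3.78 FPKM in vehicle and 8.39 and 9.11 FPKM in gemcitabine libraries, a log2 fold change of 1.16 (SE 0.14, edgeR adjusted p = 1.44e-05). Thus both plasminogen activators were called higher, with PLAT measured on many more fragments than PLAU.

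SERPINE2, the protease nexin that inhibits urokinase and thrombin, had 18.7 and 16.9 FPKM in vehicle and 35.1 and 34.3 FPKM in gemcitabine libraries, a log2 fold change of 0.74 (SE 0.094, edgeR adjusted p = 2.74e-05). The lowest gemcitabine library was well above the highest vehicle library. PLG, the gene of plasminogen itself, did not have the fragments needed for testing. The 1 gene lower at an adjusted p below 0.05 was PCSK6, a proprotein convertase, named after its value was seen, with a log2 fold change of -0.49 in counts but 12.5 and 13.3 FPKM by mean in vehicle and gemcitabine libraries.

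Among 28 ADAM and ADAMTS proteases, the related adamalysins, 23 were tested, none was called higher and 1 was called lower, beside 5.69% and 4.42% of all tested genes. The number called higher was 3 with library totals, 2 without a filter on low counts or with filterByExpr, and 1 with limma on log2(FPKM + 1) or without any of 3 single libraries (vehicle replicate 1 and either gemcitabine replicate). At an adjusted p below 0.05, 7 were higher and 2 lower, beside 18.5% and 20.0%. The median log2 fold change was 0.26, beside 0.01 over all tested genes. ADAMTS1, a secreted protease that cleaves proteoglycans, had 2878 and 2939 fragments in vehicle and 1496 and 1616 in gemcitabine libraries, a log2 fold change of -0.79 (SE 0.070, edgeR adjusted p = 1.28e-06). On the FPKM scale ADAMTS1 differed less, with 60.3 and 46.9 against 35.1 and 39.4 FPKM and a limma adjusted p of 0.108 on log2(FPKM + 1). Its conditions did not overlap on either scale. Over all 4 lists 7 genes were called higher. Of these, MMP19, TFPI2 and PLAT were still called with limma on log2(FPKM + 0.1), and TFPI2 alone with limma on log2(FPKM + 1) without a filter on low values.

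**Figure D3:**
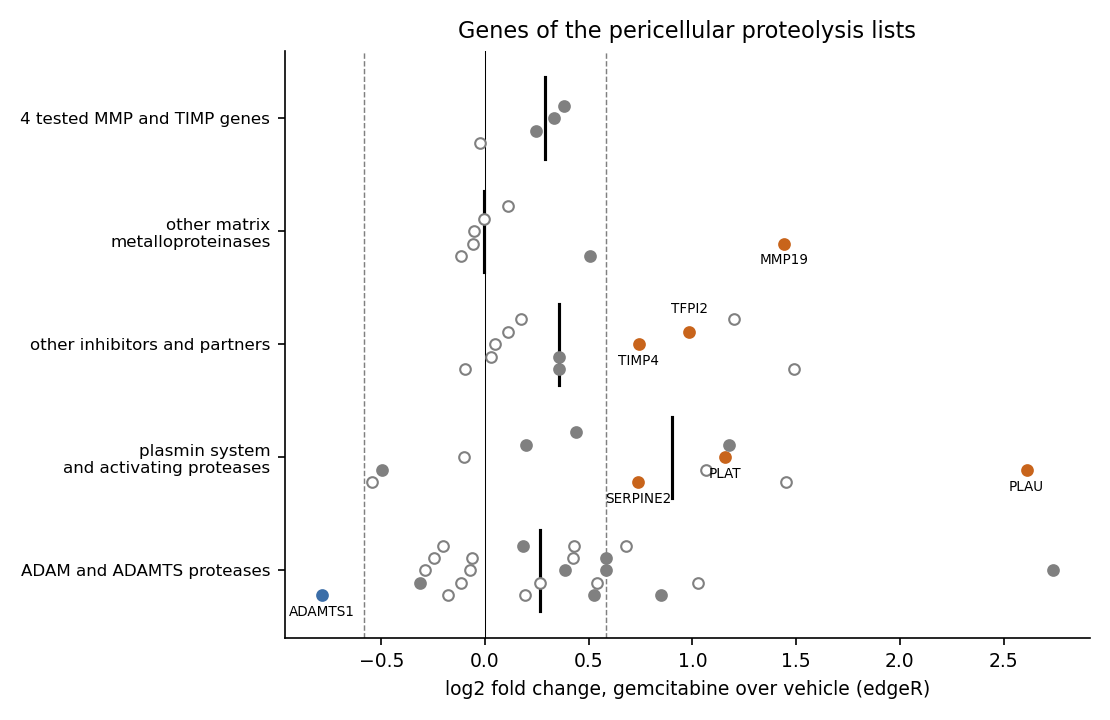
Log2 fold change, gemcitabine over vehicle, of tested genes of the family and of the 4 lists, with 1 point a gene spread vertically only to separate points. Coloured points met all criteria, grey filled points passed the adjusted p alone, open points did not, black bars are list medians and dashed lines mark 1.5-fold. The 4 family genes stay within the dashed lines. Among the coloured points PLAU is highest at 2.61 and ADAMTS1 lowest at -0.79, and the grey point at 2.74 is ADAMTS4, which did not meet the FPKM difference.

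DNaseI hypersensitive regions mark accessible chromatin, where DNaseI cuts most often. The deposited peak lists held 9606 regions for vehicle and 10695 for gemcitabine, each from 1 sample. None of the 10 genes had a region within 5 kb of an annotated transcription start in either list, beside 26.1% of the 19619 annotated genes in the vehicle list and 29.9% in the gemcitabine list. Among the 7848 genes with a mean of at least 10 FPKM in vehicle, a group formed after the values were seen, the shares were 44.2% and 49.3%. The expressed genes MMP2, TIMP1, TIMP2 and TIMP3 were thus without a called region at their starts, as were those at or near 0. A region missing from a list says only that it did not pass the caller's threshold in that sample. The study added PANC1 regions from ENCODE so as to detect more open chromatin, and the lists used here leave those out.

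The nearest regions lay farther away. For TIMP1 the nearest region was 20.6 kb from a start in both lists and overlapped between them, with a peak score of 73.0 in vehicle and 163 in gemcitabine (the score is a log-scaled form of the caller's p-value and is larger for a smaller p). For MMP9 a region at 35.9 kb in vehicle and 35.8 kb in gemcitabine was shared, with scores of 199 and 137. The scores moved in opposite directions at these 2 places, and with 1 sample per condition neither difference can be tested. For MMP2 the nearest regions were 106.1 kb away in vehicle and 459.9 kb away in gemcitabine, and for TIMP3 they were 216.6 and 326.0 kb away.

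For MMP14 the nearest region was 77.0 kb away in vehicle, and 29.2 kb away in gemcitabine with a score of 147 and no overlapping region in the vehicle list. On chromosome 11 the nearest vehicle region, the same one for MMP1, MMP3, MMP7 and MMP10, was 352.0 to 660.0 kb away. In the gemcitabine list the nearest region was 24.8 kb from MMP3 and 29.7 kb from MMP7, and neither overlapped a vehicle region. Their scores of 61.6 and 57.8 were near the lowest score in the lists, 50.

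TIMP2 was the only gene of the family with regions inside it. The gemcitabine list held 2 and the vehicle list none, and both lay in introns with no exon of any annotated gene in them. The first, chr17:76858009-76858659, had a score of 159, a score that 4.90% of gemcitabine regions reached. The second, chr17:76879255-76880148, had a score of 81.4, which 40.8% reached. The nearest gemcitabine region to a TIMP2 start lay outside the gene at 8.6 kb, and the nearest vehicle region at 32.7 kb.

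The central 300 bases of the higher-scoring intronic region are shown as the accessible site of the family with the highest score among those inside a gene. They are printed on the plus strand of hg19 with motif matches in capitals.
TIMP2 intron (chr17:76858185-76858484, plus strand): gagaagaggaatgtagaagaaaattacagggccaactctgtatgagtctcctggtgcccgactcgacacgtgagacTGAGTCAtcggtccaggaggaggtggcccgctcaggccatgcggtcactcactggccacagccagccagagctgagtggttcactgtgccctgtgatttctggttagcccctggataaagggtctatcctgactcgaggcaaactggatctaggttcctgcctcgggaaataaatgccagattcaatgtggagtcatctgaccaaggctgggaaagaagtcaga
The match is to the AP-1 motif TGANTCA and begins at base 77. This motif occurred in the central 300 bases of 19.3% of the 10695 gemcitabine regions. The second intronic region held no AP-1 match and 1 GC box, which 30.6% of those regions held.

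**Figure D4:**
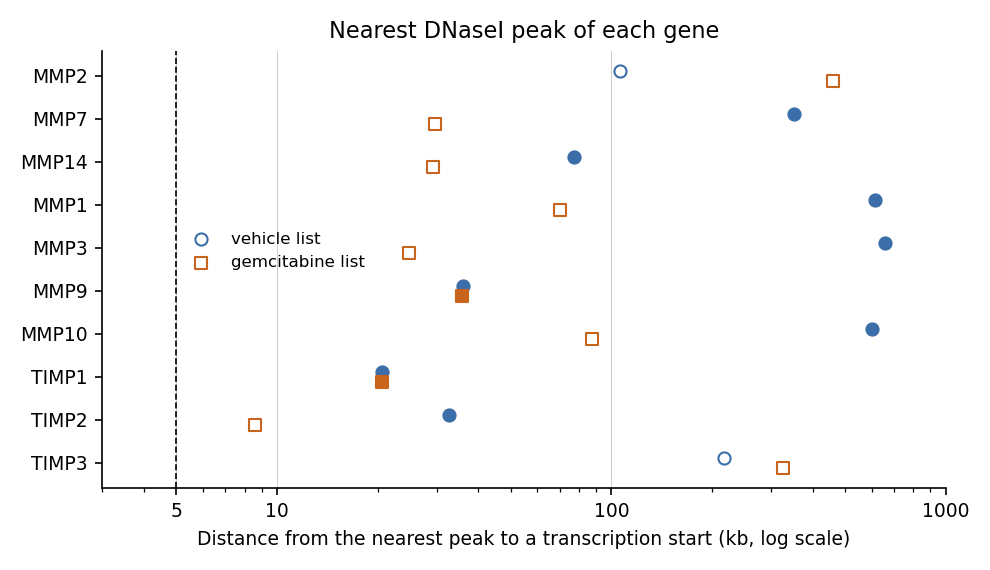
Distance in kb, on a log scale, from each gene's transcription starts to the nearest DNaseI region in the vehicle list (circles) and the gemcitabine list (squares). Filled symbols overlap a region of the other list and the dashed line marks 5 kb; no symbol lies at or below it, and the closest is the gemcitabine region 8.6 kb from TIMP2.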

How the data were processed

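The 10 genes and the 4 lists were chosen with earlier results of these data known. RNA was measured in 4 libraries and DNaseI hypersensitivity in 2. Single-end reads had been aligned by the authors with TopHat2 (version 2.0.8), using hg19. The deposited table gives an estimated count of fragments per gene and library and FPKM, both obtained by the authors with Cuffdiff (version 2.0.2) and protein-coding Gencode annotations. FPKM did not have the scaling used for the counts in the tests (TMM), and it also depends on the isoforms to which fragments were assigned. It can therefore move apart from the counts. The deposited peak lists give regions the authors called with MACS at a p-value of 1e-05, each with a score. The MACS version is not given in the sources used here. The 2 columns scaled by Cuffdiff were not used. The index by which the table tells libraries apart has no stated link to the labels' replicate numbers, and vehicle replicate 1 is the first by that index.

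Estimated counts were rounded to whole numbers. A gene was tested if its rounded sum over all libraries reached 10, in edgeR 4.0.16 (R 4.3.3) with TMM scaling, with no covariates, and p-values were adjusted by Benjamini-Hochberg over 14854 genes. DESeq2 1.42.0 and limma 3.58.1 on log2(FPKM + 1) or log2(FPKM + 0.1) were alternatives, as were other scalings and filters, other criteria and leaving out each library. All 10 genes were named, and from each list every called gene, with MMP19 and TIMP4 in any case; 1 called gene of the plasmin list is counted but not reported here. Other genes are named where a count of 5 or fewer fell outside that rule. Transcription starts came from Gencode annotation lifted to the same build, and regions within 5 kb were counted. Upstream sequences were credited to RefSeq and hg19 sequence was read from the reference genome. Motif letters were searched on both strands.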

Additional observations from a re-analysis of the deposited data

How the results depend on the processing

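No gene of the family was called in any alternative run, except that the criterion of adjusted p below 0.05 alone gave 3 higher. The number of family genes higher at that adjusted p was 3 in the main analysis, 0 in each of the 3 limma analyses of FPKM, and 0 to 3 when 1 library was left out, the 0 being without vehicle replicate 2. The number lower was 0, and 0 to 1 when 1 library was left out. MMP2, TIMP1 and TIMP3 lay above 0 in all 12 alternatives and passed the adjusted p in 8, 8 and 6, whereas TIMP2 lay above 0 in 6 of 12. Scaling by library totals moved the median (log2 fold change, all genes tested) from 0.01 to 0.12.

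Over all genes, 845 were called higher and 656 lower. Higher calls numbered 95 with limma on log2(FPKM + 1) without filter, 133 with limma on log2(FPKM + 0.1), 2751 by adjusted p alone and 1503 by fold and FPKM alone. Lower calls numbered 418 with library totals, 298 with limma on log2(FPKM + 1), 32 without filter, 17 with limma on log2(FPKM + 0.1) and 2975 by adjusted p alone. Leaving out 1 library gave 674 to 923 higher and 594 to 771 lower. In the 4 related lists together, 7 genes were called higher and 1 lower. The higher calls became 11 with library totals, 1 and 3 with limma on log2(FPKM + 1) without filter and on log2(FPKM + 0.1), 20 by adjusted p alone and 12 by fold and FPKM alone. The lower calls became 0 in the 3 limma analyses and by fold and FPKM alone, and 3 by adjusted p alone. The cause was not tested.

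Widening the window to 10 kb gave 1 gene, TIMP2, with a region in the gemcitabine list, beside 34.8% of all annotated genes. In the vehicle list it gave none, beside 30.8%. The other peak alternatives left all counts at 0. No paired analysis was possible because the table's columns do not carry the labels' replicate numbers. With 2 libraries per condition, leaving one out leaves a lone library that is assumed to vary like the others. The gemcitabine libraries differed from each other more than the vehicle libraries did. The mean chi-square per gene (squared difference over counting variance) was 5.16 for the gemcitabine pair and 2.17 for the vehicle pair. Adjusted p and counts of genes from such fits therefore rest on whichever pair was left. Depth limits the 6 proteases at or under 3 fragments.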
